A study of Homo sapiens with 12 samples.

Results

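Integrins are cell-surface receptors made of 1 alpha and 1 beta chain that hold a cell to the matrix around it, and the 10 chains described here take part in receptors for collagen, laminin, fibronectin, vitronectin or the latent form of transforming growth factor beta. Other chains with some of the same ligands, such as ITGA6 and ITGB4, are not among them. The members were fixed by gene symbol: ITGA1, ITGA2, ITGA3, ITGA5, ITGAV, ITGB1, ITGB3, ITGB5, ITGB6 and ITGB8. All probe sets with one of these as their only deposited symbol were taken, which gave 32 of 54613 probe sets and 9 of 19682 genes. ITGA1, the alpha chain of a collagen receptor, had no probe set under its own symbol and was not measured.

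Ect1 cells, an established line of human ectocervical epithelium immortalised with papillomavirus genes, were exposed for 10 h to 10% (v/v) pooled human seminal plasma (4 arrays), to recombinant human TGFB3 at 5 ng/ml (4 arrays) or to medium alone as the control (4 arrays). All 3 groups were confluent monolayers in the same serum-free keratinocyte medium with EGF, bovine pituitary extract and calcium chloride, and each array read RNA pooled from its own set of 4 wells. Transcripts were hybridised to Affymetrix U133 Plus 2.0 arrays, which report 1 linear signal per probe set. A single line and a single pool of seminal plasma limit what these groups stand for, and how precise a value can be is limited by having 4 arrays a group.

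In squamous epithelium, integrins of the basal cells bind the laminin and collagen of the basement membrane, and the fibronectin receptor and the alpha-v chains gain weight when the cells migrate or repair a wound. Each alpha chain finds its ligand together with its beta partner: ITGB1 pairs with ITGA1, ITGA2, ITGA3, ITGA5 and ITGAV, while ITGB3, ITGB5, ITGB6 and ITGB8 pair with ITGAV. The receptors with ITGB6 or ITGB8 bind the latency peptide of transforming growth factor beta and can release the active factor, and ITGB6 is itself known as a target of that factor in epithelial cells.

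The 3 members that rose with seminal plasma differed in the 300 bases around their RefSeq start site (250 before and 50 after, GRCh38.p14). These windows are shown because the 3 genes were called with that treatment. Capitals mark the motifs found on either strand, and positions count from the start base as 0. ITGA2 lies on the plus strand at chr5:52989102-52989401, ITGA5 on the minus strand at chr12:54419217-54419516, and ITGB6 on the minus strand at chr2:160200223-160200522.
ITGA2: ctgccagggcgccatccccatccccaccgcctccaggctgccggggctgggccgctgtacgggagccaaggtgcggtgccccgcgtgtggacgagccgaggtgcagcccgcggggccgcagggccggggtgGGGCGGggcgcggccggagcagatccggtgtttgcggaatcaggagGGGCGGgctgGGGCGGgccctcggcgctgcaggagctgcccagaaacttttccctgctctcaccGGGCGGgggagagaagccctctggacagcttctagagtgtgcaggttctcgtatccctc
ITGA5: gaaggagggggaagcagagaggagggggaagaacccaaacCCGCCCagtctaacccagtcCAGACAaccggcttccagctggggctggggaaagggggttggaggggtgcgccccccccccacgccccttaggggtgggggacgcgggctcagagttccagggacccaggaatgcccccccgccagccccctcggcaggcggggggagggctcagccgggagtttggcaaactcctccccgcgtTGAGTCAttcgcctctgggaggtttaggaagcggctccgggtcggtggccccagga
ITGB6: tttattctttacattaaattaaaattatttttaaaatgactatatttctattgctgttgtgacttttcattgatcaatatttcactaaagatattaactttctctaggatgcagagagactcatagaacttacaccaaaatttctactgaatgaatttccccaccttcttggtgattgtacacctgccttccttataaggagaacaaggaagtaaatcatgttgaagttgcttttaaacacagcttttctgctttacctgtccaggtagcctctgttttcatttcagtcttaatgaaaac
The ITGA2 window was 72.7% G or C and held the GC box GGGCGG 4 times, at -119, -73, -63 and -9. The ITGA5 window was 69.3% G or C and held the GC box on the other strand (CCGCCC) at -210, the CAGA box CAGACA at -190 and the AP-1 site on the other strand (TGAGTCA) at -6. The ITGB6 window was only 31.7% G or C, against 58.7% over all 35116 promoter windows, and held none of the motifs searched. Those were the AP-1 site TGACTCA, the cAMP response element TGACGTCA, the SMAD palindrome GTCTAGAC, the CAGA box and the GC box, and the matches in the printed windows did not overlap. Over all windows, 45.0% held a GC box, 16.9% a CAGA box, 4.95% an AP-1 site, 1.85% a cAMP response element and 0.202% the palindrome. In all, 8 of the 10 members had 1 or more windows (12 windows), and ITGA3 and ITGB3 are named only. Windows of ITGB1, ITGB5 and ITGB8, which were not called, also held GC boxes, while those of ITGAV held none of the motifs. A GC box thus did not set the called members apart. A match is a run of letters and not a measured binding site.

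The arrays carried the marks of the labelled cells: all 10 squamous markers (such as KRT5, KRT14 and TP63) had a mean signal of at least 100 in the control arrays. Their summed signal was 350489 to 555111 in seminal plasma arrays, 234586 to 337020 in TGFB3 arrays and 213384 to 336514 in control arrays. The sum was not moved by all markers alike. SFN had mean signals of 101800 in seminal plasma arrays, 42860 in TGFB3 arrays and 36490 in control arrays, while CDH1 had 7878 in seminal plasma arrays, 11360 in TGFB3 arrays and 11900 in control arrays, and the means of DSG3, KRT16 and TP63 with seminal plasma were also below those of the controls. Of the markers of other cells, 2 of 7 leukocyte, 2 of 8 fibroblast, 2 of 8 endothelial and platelet and 4 of 8 prostate, vesicle and sperm genes had a mean of at least 100 over the 12 arrays, among them CD14 (687.6 in control arrays) and KLK3 (511.4 in control arrays). The sum of 7 leukocyte genes was 396 to 1057 in seminal plasma arrays, 405 to 612 in TGFB3 arrays and 785 to 1096 in control arrays. For 8 fibroblast genes it was 469 to 1038 in seminal plasma arrays, 578 to 770 in TGFB3 arrays and 636 to 773 in control arrays. For 8 endothelial and platelet genes it was 738 to 970 in seminal plasma arrays, 553 to 937 in TGFB3 arrays and 336 to 716 in control arrays. The sum of 8 genes of prostate, seminal vesicle and sperm was 1102 to 1699 in seminal plasma arrays, 797 to 1278 in TGFB3 arrays and 823 to 1081 in control arrays. Single genes of that list differed in direction: the means of KLK3 were 734.4 with seminal plasma, 584.8 with TGFB3 and 511.4 in control, and those of ACP3 were 98.45 with seminal plasma, 61.67 with TGFB3 and 166.2 in control. The part of any of these in the integrin values was not tested. In such bulk RNA, fewer cells of a type and less RNA per cell cannot be told apart.

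2 arrays, seminal plasma replicates 3 and 4, were unlike the other 10. Replicates 3 and 4, in that order, had median signals of 177.63 and 131.47, against 88.14 to 107.08 elsewhere, and 8.01% and 12.8% of their probe sets lay under a signal of 16, against 16.3% to 20.2%. Their 100 brightest probe sets took 18.41% and 15.36% of the summed signal, against 7.66% to 11.6%. Integrin results are therefore also given without these 2 arrays for the called members and for some others.

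Seminal plasma raised the signal of 3 of the 9 measured members, and none fell. These were ITGA2, the alpha chain of the main epithelial collagen receptor, ITGA5, the alpha chain of the fibronectin receptor, and ITGB6, the beta chain of the epithelial receptor for latent transforming growth factor beta. Log2 fold changes were 2.13, 1.55 and 1.39 in that order, in limma's moderated test with Benjamini-Hochberg adjustment over all probe sets and a threshold of 0.05. Of all genes, 1.87% rose and 1.38% fell with seminal plasma by the same rule. Over probe sets, 4 of the 32 were called, all higher, against 2.94% of all probe sets in either direction.

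TGFB3 raised 1 of the 9 members, ITGB6, with a log2 fold change of 2.54, and none fell, where 0.254% of all genes rose and 0.0406% fell. By probe set, 3 of the 32 were called, all of ITGB6 and all higher, against 0.19% of all probe sets in either direction. The adjustment depends on all probe sets of a contrast. The counts called therefore do not measure which treatment acted more on the members. All 4 TGFB3 arrays lay above all 4 control arrays for 4 members, ITGA2, ITGA5, ITGAV and ITGB6, and 4.74% of all genes had that pattern. With seminal plasma it held for the 3 members called, and for 8.88% of all genes. At an unadjusted p under 0.05, limma marked 5 of the 9 members with TGFB3, where 9.79% of all genes were marked, and 3 of the 9 with seminal plasma, where 26.8% of all genes were, so that the count with seminal plasma was near that share. The median log2 fold change of the 9 members was 0.29 with seminal plasma and 0.95 with TGFB3, beside 0.11 and -0.01 over all genes. The 0.95 was the value of ITGB3 itself, a dim member with a wide error (± 0.76, limma adjusted p 0.928).

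**Figure D1:**
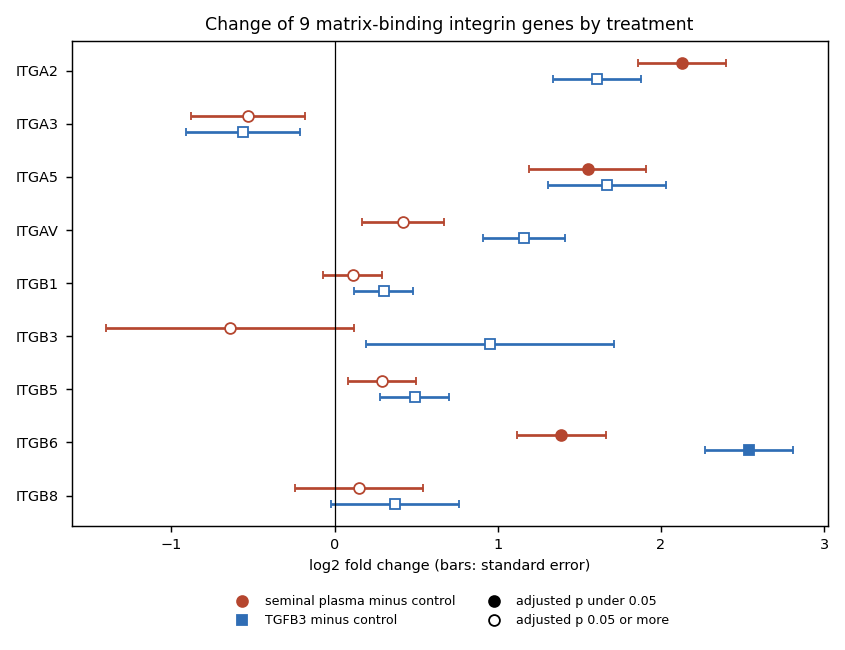
Log2 fold change of the 9 measured matrix-binding integrin genes (vertical) for seminal plasma minus control and TGFB3 minus control, with standard errors of the fit over 12 arrays; filled symbols passed an adjusted p of 0.05. ITGA2, ITGA5 and ITGB6 were filled for seminal plasma, and ITGB6 alone for TGFB3, where its log2 fold change was 2.54.

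Among the alpha chains, ITGA2 (probe set 227314_at) had signals of 14317, 8347, 5593 and 12282 in seminal plasma replicates 1 to 4, of 5526, 7147, 7582 and 6507 in TGFB3 replicates 1 to 4, and of 2127, 1894, 2435 and 2287 in control replicates 1 to 4. Every treated array was above every control, while the seminal plasma arrays and the TGFB3 arrays overlapped. With seminal plasma the log2 fold change was 2.13 ± 0.27 (SE, n = 4 arrays per group, 4.37-fold, limma adjusted p 0.00661). With TGFB3 it was 1.61 ± 0.27 (3.05-fold, limma adjusted p 0.0544), which did not pass. Its other probe set, 205032_at, was also called with seminal plasma (log2 fold change 1.65 ± 0.28, limma adjusted p 0.0194) and not with TGFB3 (1.26 ± 0.28, limma adjusted p 0.153).

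The rise of ITGA2 with seminal plasma passed in all 12 fits that left out 1 array, with limma adjusted p between 0.00174 and 0.0267, and without seminal plasma replicates 3 and 4 (log2 fold change 2.33, adjusted p 0.0055). The value with TGFB3 sat at the threshold. With 1 array left out it passed in 2 of 12 fits, and the adjusted p from limma reached 0.209. Those 2 were without seminal plasma replicate 1 (limma adjusted p 0.0422) and without replicate 3 (0.0113). It also passed without replicates 3 and 4 together (limma adjusted p 0.0148). These arrays enter that contrast only through the shared estimate of the spread. The second probe set lost its call with seminal plasma without control replicate 1 (limma adjusted p 0.0565), replicate 2 (0.0508) or replicate 4 (0.0532), after centring each array on its median (0.0912) and in a fit of only the 8 arrays compared (0.0718).

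ITGA5 (201389_at) had signals of 9334, 6601, 5526 and 4506 in seminal plasma replicates 1 to 4, of 3346, 10159, 10620 and 5849 in TGFB3 replicates 1 to 4, and of 2097, 2299, 1967 and 2195 in control replicates 1 to 4. The control arrays lay close together and below every treated array, and the TGFB3 arrays were spread widely, replicate 1 being the lowest. The log2 fold change was 1.55 ± 0.36 with seminal plasma (2.93-fold, limma adjusted p 0.0478) and 1.67 ± 0.36 with TGFB3 (3.17-fold, limma adjusted p 0.143). The call with seminal plasma was thus near the threshold while the larger difference with TGFB3 missed it. Before adjustment the limma p was 0.00126 with seminal plasma and 0.000747 with TGFB3, so the calls differed through the adjustment over all probe sets. The call with seminal plasma held in 2 of the 12 fits with 1 array left out. Those were the fits without seminal plasma replicate 2 or without TGFB3 replicate 1 (limma adjusted p 0.0265 in the second). Without any 1 of the other 10 arrays the adjusted p was 0.055 to 0.115, and without seminal plasma replicates 3 and 4 it was 0.0998 at a log2 fold change of 1.88. The call was also lost with a floor of 64 (limma adjusted p 0.0536), after quantile normalisation (0.0561), after median centring (0.141) and with only the 8 arrays compared (0.0591). Without TGFB3 replicate 1 the contrast with TGFB3 passed (log2 fold change 2.01, limma adjusted p 0.0352). That was 1 of 12 fits with 1 array left out, where the limma adjusted p reached 0.41.

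ITGAV (202351_at), the alpha chain shared by the receptors for vitronectin and for latent transforming growth factor beta, had signals of 8665, 8307, 3989 and 5789 in seminal plasma replicates 1 to 4, of 8695, 12528, 12208 and 9739 in TGFB3 replicates 1 to 4, and of 4898, 5166, 4489 and 4550 in control replicates 1 to 4. The TGFB3 arrays were all above the control arrays and all above the seminal plasma arrays, with seminal plasma replicate 3 below every control. The log2 fold change was 0.42 ± 0.25 with seminal plasma (limma adjusted p 0.311) and 1.16 ± 0.25 with TGFB3 (2.24-fold, limma adjusted p 0.141), so that neither passed. With 1 array left out the value with TGFB3 passed in 1 of 12 fits, where the adjusted p from limma was 0.0367 to 0.411. That fit was the one without seminal plasma replicate 3. The value with TGFB3 also passed without replicates 3 and 4 together (limma adjusted p 0.0143). The value with seminal plasma was 0.83 without both of those replicates (limma adjusted p 0.0648).

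ITGA3 (201474_s_at), the alpha chain of an epithelial laminin receptor, did not pass with either treatment. It had signals of 2517, 3690, 2654 and 1271 in seminal plasma replicates 1 to 4, 1596, 2468, 2276 and 3230 in TGFB3 replicates 1 to 4, and 2991, 2377, 4218 and 4524 in control replicates 1 to 4. The groups overlapped. It was the member with the lowest log2 fold change with TGFB3, -0.56 ± 0.35 (limma adjusted p 0.84), and had -0.53 ± 0.35 with seminal plasma (limma adjusted p 0.367).

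**Figure D2:**
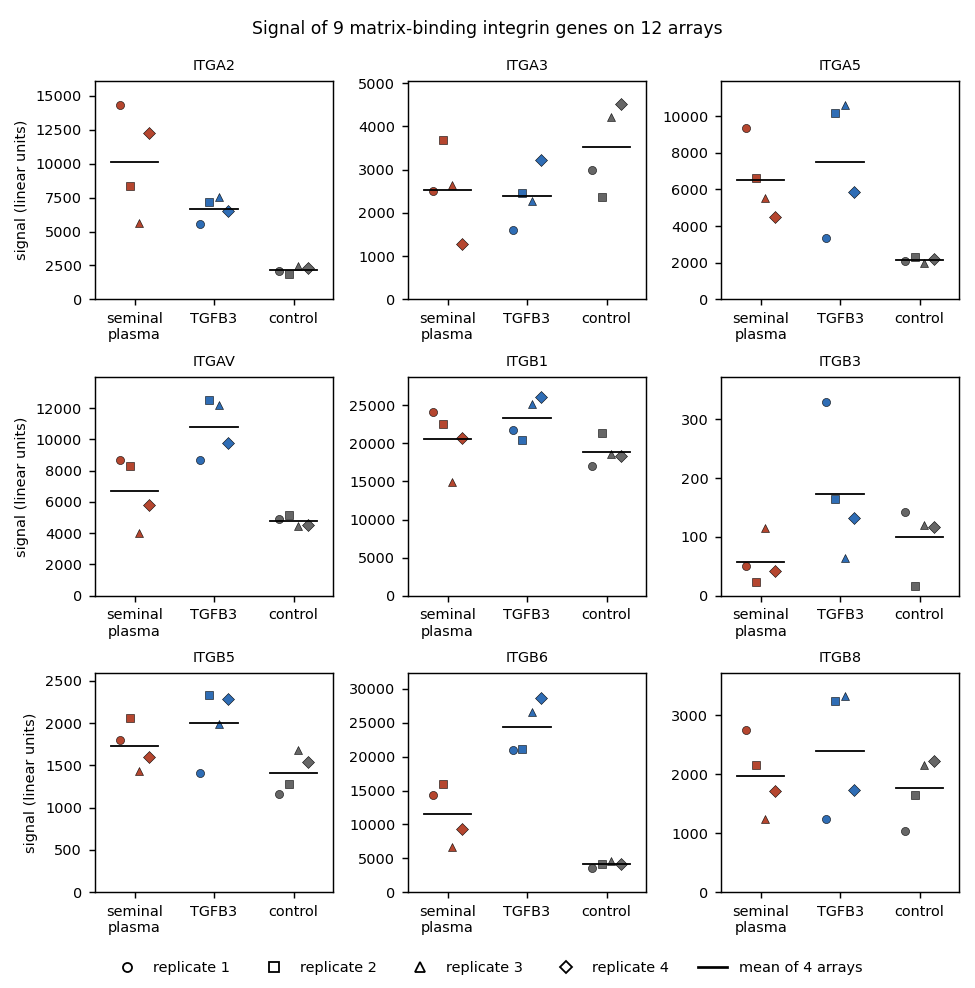
Linear signal on each of the 12 arrays (points; the symbol gives the replicate, the line the mean of 4 arrays) for the 9 measured members, in seminal plasma, TGFB3 and control arrays, each on its brightest probe set. For ITGA2, ITGA5 and ITGB6 all treated points lie above all control points, and for ITGAV the TGFB3 points do.

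Among the beta chains, ITGB6 was the only one called against control. Its brightest probe set, 226535_at, had signals of 14289, 16032, 6610 and 9257 in seminal plasma replicates 1 to 4, of 21058, 21202, 26674 and 28668 in TGFB3 replicates 1 to 4, and of 3639, 4170, 4668 and 4227 in control replicates 1 to 4. The 3 groups did not overlap: every TGFB3 array was above every seminal plasma array, and every seminal plasma array was above every control. The log2 fold change was 1.39 ± 0.27 with seminal plasma (2.62-fold, limma adjusted p 0.0285) and 2.54 ± 0.27 with TGFB3 (5.81-fold, limma adjusted p 0.00493). The call with TGFB3 held in all 12 fits with 1 array left out. The call with seminal plasma held in 7 of them and was lost without any 1 control replicate (limma adjusted p 0.0665 to 0.0802) and without seminal plasma replicate 4 (0.0579). Without seminal plasma replicates 3 and 4 together it passed, with a log2 fold change of 1.86 and an adjusted p of 0.00438. It was lost after median centring (log2 fold change 1.00, limma adjusted p 0.168) and with only the 8 arrays compared (0.102).

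The other 2 bright probe sets of ITGB6 differed from 226535_at in what they showed for seminal plasma. Probe set 208083_s_at had signals of 1426, 2374, 1103 and 1381 in seminal plasma replicates 1 to 4, 8546, 9123, 9560 and 7987 in TGFB3 replicates 1 to 4, and 1295, 760.5, 571.3 and 712.3 in control replicates 1 to 4. Probe set 208084_at had 1151, 1623, 447.9 and 422.1 in seminal plasma replicates 1 to 4, 6449, 7251, 7280 and 5474 in TGFB3 replicates 1 to 4, and 950.9, 718.0, 584.5 and 375.7 in control replicates 1 to 4. On both, the seminal plasma arrays overlapped the controls and the TGFB3 arrays stood far above the rest. With seminal plasma the log2 fold changes were 0.92 ± 0.28 (limma adjusted p 0.088) and 0.31 ± 0.44 (limma adjusted p 0.687). The smaller one had the opposite sign after centring each array on its median (-0.08) and without seminal plasma replicate 2 (-0.05). Without seminal plasma replicates 3 and 4 the log2 fold changes were larger, 1.21 (limma adjusted p 0.137) and 1.14 (0.18), and neither passed. With TGFB3 they were 3.46 ± 0.28 (11.0-fold, limma adjusted p 0.00114) and 3.40 ± 0.44 (10.6-fold, limma adjusted p 0.014). The call of 208084_at with TGFB3 was lost without control replicate 3 or 4 or without TGFB3 replicate 2 or 3 (limma adjusted p 0.059 to 0.0704). The fourth probe set, 239517_at, was dim, with a mean of 92.4 over the 12 arrays, and was not called. Its log2 fold change with TGFB3 was -0.05 ± 0.55, opposite in sign to the other probe sets of ITGB6.

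**Figure D3:**
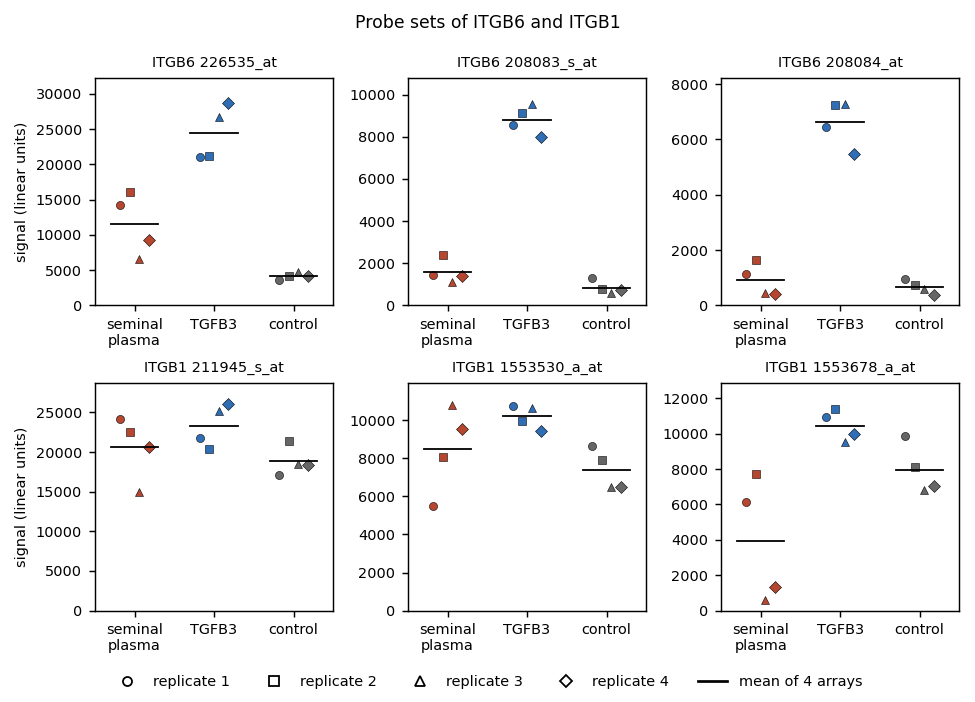
Linear signal on each of the 12 arrays for 3 probe sets of ITGB6 (top) and 3 of ITGB1 (bottom), in seminal plasma, TGFB3 and control arrays (the symbol gives the replicate, the line the mean of 4 arrays). Seminal plasma points lie above the controls on ITGB6 226535_at and overlap them on 208083_s_at and 208084_at; on ITGB1 1553678_a_at seminal plasma replicates 3 and 4 (590.8 and 1361) lie apart.

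ITGB5 (201125_s_at), the beta chain of a vitronectin receptor, had signals of 1801, 2061, 1436 and 1599 in seminal plasma replicates 1 to 4, 1405, 2337, 1984 and 2286 in TGFB3 replicates 1 to 4, and 1159, 1273, 1678 and 1542 in control replicates 1 to 4. ITGB8 (226189_at), which also binds latent transforming growth factor beta with ITGAV, had 2761, 2162, 1242 and 1720 in seminal plasma replicates 1 to 4, 1249, 3240, 3327 and 1743 in TGFB3 replicates 1 to 4, and 1046, 1658, 2161 and 2221 in control replicates 1 to 4. Both overlapped between all groups and neither passed. The log2 fold changes of ITGB5 were 0.29 ± 0.21 with seminal plasma (limma adjusted p 0.413) and 0.49 ± 0.21 with TGFB3 (0.624), and those of ITGB8 were 0.15 ± 0.39 (0.832) and 0.37 ± 0.39 (0.968). After centring each array on its median the seminal plasma values had the opposite sign, -0.10 for ITGB5 and -0.23 for ITGB8. Another probe set of ITGB8, 205816_at, with a mean of 156.4 over the 12 arrays, had a larger log2 fold change with seminal plasma, 1.73 ± 0.71, which did not pass (limma adjusted p 0.164).

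ITGB3 (204626_s_at), the beta chain of the other classical vitronectin receptor and of the platelet fibrinogen receptor, had a low mean of 109.9 over the 12 arrays. It had signals of 50.1, 22.76, 115.9 and 42.94 in seminal plasma replicates 1 to 4, 329.2, 164.4, 64.56 and 132.3 in TGFB3 replicates 1 to 4, and 142.8, 16.45, 120.8 and 116.6 in control replicates 1 to 4. The arrays of each group scattered over a wide range and the groups overlapped. The log2 fold change was -0.64 ± 0.76 with seminal plasma (limma adjusted p 0.624) and 0.95 ± 0.76 with TGFB3 (0.928). With 1 array left out these values were -1.37 to -0.27 with seminal plasma and 0.22 to 1.35 with TGFB3. The other 6 probe sets of ITGB3 had means between 10.9 and 86.9.

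ITGB1 (211945_s_at), the beta chain common to the collagen, laminin and fibronectin receptors, had signals of 24182, 22551, 14951 and 20691 in seminal plasma replicates 1 to 4, 21761, 20390, 25158 and 26045 in TGFB3 replicates 1 to 4, and 17075, 21430, 18552 and 18411 in control replicates 1 to 4. The groups overlapped. The log2 fold change was 0.11 ± 0.18 with seminal plasma (limma adjusted p 0.735), the same as the median of all genes in that contrast, with -0.28 after median centring and -0.17 after quantile normalisation. With TGFB3 it was 0.30 ± 0.18 (limma adjusted p 0.813). ITGB1 was thus not called with either treatment while ITGA2 and ITGA5, which need it as a partner, were called with seminal plasma. Whether the alpha chains differed from ITGB1 in their change was not tested.

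Other probe sets of ITGB1 went different ways on seminal plasma replicates 3 and 4. On 1553678_a_at the arrays had signals of 6129, 7699, 590.8 and 1361 in seminal plasma replicates 1 to 4, 10924, 11383, 9551 and 9977 in TGFB3 replicates 1 to 4, and 9869, 8096, 6830 and 7044 in control replicates 1 to 4. On 1553530_a_at, which was chosen for display after its values were seen, they had 5484, 8079, 10813 and 9528 in seminal plasma replicates 1 to 4, 10746, 9951, 10650 and 9461 in TGFB3 replicates 1 to 4, and 8670, 7904, 6491 and 6482 in control replicates 1 to 4. Replicates 3 and 4 were thus the lowest of all 12 arrays on the first probe set, while on the second both were above every control and replicate 3 was the highest of all. The first had a log2 fold change of -1.67 ± 0.68 with seminal plasma (limma adjusted p 0.164), which was -0.20 without replicates 3 and 4 and -2.21 (limma adjusted p 0.0389) without replicate 2. The second had 0.17 ± 0.21 (limma adjusted p 0.65). The median and bright-end values of these arrays given above moved with this split, and their part in it was not tested.

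In all, 12 of the 32 member probe sets had a mean signal under 100 over the 12 arrays and none of the 12 was called, with limma adjusted p no lower than 0.156 with seminal plasma and 0.644 with TGFB3. They were 3 of ITGB1, 6 of ITGB3 and 1 each of ITGB5, ITGB6 and ITGB8. Of the brighter probe sets, ITGB1 1553678_a_at, 1561042_at and 216178_x_at, ITGB5 214020_x_at and ITGB8 205816_at and 211488_s_at had in at least 1 contrast a sign opposite to the one that stands for the gene, and none of them was called. The call for a gene thus rests on 1 probe set for ITGA3, ITGA5 and ITGAV, which have no other, and ITGA2 was the one called member whose probe sets all gave the same call in each contrast.

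Set directly against each other, seminal plasma and TGFB3 gave calls among the members on 2 probe sets of ITGB6 only. No gene was called by its representing probe set (0 of 9 in limma, 2 at an unadjusted p under 0.05, ITGAV and ITGB6, beside 4730 of all 19682 genes, a similar share), where 1.21% of all genes were higher and 0.752% lower with seminal plasma. By probe set, 2 of the 32 passed, against 1.73% of all probe sets in either direction. Both were of ITGB6 and lower with seminal plasma, 208083_s_at with a log2 difference of -2.54 ± 0.28 (limma adjusted p 0.00555) and 208084_at with -3.09 ± 0.44 (0.0172). The second was not called without TGFB3 replicate 2 (limma adjusted p 0.0601) or replicate 3 (0.0626), and neither was called with only the 8 arrays compared (0.0507 and 0.0915).

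On 226535_at the difference was -1.15 ± 0.27 (limma adjusted p 0.0581), and it passed without seminal plasma replicate 1 (0.048) or replicate 2 (0.0144). ITGAV was -0.74 ± 0.25 (limma adjusted p 0.125), with all seminal plasma arrays below all TGFB3 arrays. Without seminal plasma replicates 3 and 4, 226535_at was -0.68 (limma adjusted p 0.124) and ITGAV -0.33 (0.428). In that fit 208083_s_at was -2.25 (limma adjusted p 0.0293) and 208084_at -2.26 (0.0358). ITGA2 was 0.52 ± 0.27 (limma adjusted p 0.284) and ITGA5 -0.12 ± 0.36 (0.876), where ITGA5 was 0.21 without seminal plasma replicates 3 and 4. ITGB3 had a larger difference than 226535_at with a wider error, -1.59 ± 0.76 (limma adjusted p 0.247). A p that misses the threshold does not show that the treatments act alike on these genes. Both treatments were compared with the same 4 control arrays, so their changes against control are not independent.

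The authors' deposited table, which carries a signed fold, a p-value and a call for each treatment against control, called 6 of the 32 member probe sets with seminal plasma and 7 with TGFB3. With seminal plasma the authors' deposited table called both of ITGA2 (folds 4.64 and 3.23), ITGA5 (3.03), ITGB6 226535_at (2.77), and ITGB1 1553678_a_at (-2.02) and 1561042_at (2.19). With TGFB3 the authors' deposited table called both of ITGA2 (3.06 and 2.40), ITGA5 (3.50), ITGAV (2.26) and 3 of ITGB6 (5.84, 10.55 and 10.06). The share of all probe sets that the authors called is not given here, so these counts are not set against it. The difference from the counts above lies in ITGB1 for seminal plasma and in ITGA2, ITGA5 and ITGAV for TGFB3. The rule behind the authors' calls was not given, so the 2 sets of counts may rest on unlike thresholds. ITGB1 1553678_a_at, for example, was called at a deposited p-value of 0.033 from the authors' unnamed test.

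The other 16 integrin chains, among them ITGA6 and ITGB4 of the hemidesmosome and the leukocyte chains, gave no call in any contrast (0 of 16 in each). Over all genes, 1.87% rose and 1.38% fell with seminal plasma, and 0.254% and 0.0406% with TGFB3, so 0 of 16 lay near those shares. ITGA6, ITGB4 and ITGAE had control means of 10110, 5587 and 3582, and all others had group means of 199.6 or less. Their median log2 fold change was 0.19 with seminal plasma and 0.17 with TGFB3, beside 0.11 and -0.01 over all genes.

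Among 20 ligand genes (fibronectin, vitronectin, collagens, laminins and other matrix proteins), 1 rose with seminal plasma, 2 rose with TGFB3 and none fell. The shares of all genes that rose were 1.87% with seminal plasma and 0.254% with TGFB3. This list and those below were chosen with earlier results of these data known. LAMB3, a chain of the laminin of epithelial basement membrane, had signals of 12816 to 25172 in seminal plasma arrays, 14209 to 25945 in TGFB3 arrays and 5398 to 7904 in control arrays, with no overlap of treated and control arrays. It rose by a log2 fold change of 1.55 ± 0.26 with seminal plasma (limma adjusted p 0.0194) and 1.63 ± 0.26 with TGFB3 (0.043).

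COL4A1, a chain of basement membrane collagen, rose with TGFB3 (1.64 ± 0.21, limma adjusted p 0.014) and had 0.80 ± 0.21 with seminal plasma (0.0639). With 1 array left out, LAMB3 was called in 10 of 12 fits with seminal plasma (limma adjusted p 0.0114 to 0.0645) and in 3 of 12 with TGFB3 (0.0267 to 0.17), and COL4A1 with TGFB3 in 7 of 12 (0.00871 to 0.067). Without seminal plasma replicates 3 and 4, LAMB3 with seminal plasma kept its call (log2 fold change 1.84, limma adjusted p 0.0256). Both calls of LAMB3 were lost after quantile normalisation (limma adjusted p 0.0521 with seminal plasma and 0.0858 with TGFB3) and median centring (0.09 and 0.196), and the first also with only the 8 arrays compared (0.0637). COL4A1 lost its call with TGFB3 after median centring (limma adjusted p 0.144) and with the mean of its probe sets (0.189).

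Of 12 genes for transforming growth factor beta, its latency proteins, receptors and 2 early targets, 1 rose with seminal plasma and 2 with TGFB3. The shares of all genes were 1.87% and 0.254%. PMEPA1, a target that dampens the pathway, had signals of 7157 to 16405 in seminal plasma arrays, 9295 to 15029 in TGFB3 arrays and 727.2 to 910.3 in control arrays. All treated arrays lay far above the controls. Its log2 fold change was 3.86 ± 0.26 with seminal plasma (limma adjusted p 0.000149) and 3.89 ± 0.26 with TGFB3 (0.000425), and both calls held in all 12 fits with 1 array left out. SMAD7, the inhibitory SMAD of the pathway, had signals of 271.9 to 585.9 in seminal plasma arrays, 925.6 to 1724 in TGFB3 arrays and 260.2 to 358.1 in control arrays. It rose with TGFB3 (2.10 ± 0.27, limma adjusted p 0.0127), had 0.40 ± 0.27 with seminal plasma (0.376), and was lower with seminal plasma than with TGFB3 (-1.71 ± 0.27, 0.0233).

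The calls of SMAD7 held in 8 of 12 fits with 1 array left out, for TGFB3 against control (limma adjusted p 0.00881 to 0.067) and for the direct contrast (0.00975 to 0.076). The first was lost after median centring (limma adjusted p 0.0955) and the second with only the 8 arrays compared (0.119). The receptor gene TGFBR1, named after its values were seen, was also lower with seminal plasma than with TGFB3 (-1.19 ± 0.20, limma adjusted p 0.0254). TGFB1 had -0.11 ± 0.42 with seminal plasma and 0.42 ± 0.42 with TGFB3 (limma adjusted p 0.894 and 0.965), where the first was 0.01 after quantile normalisation. The TGFB3 transcript had mean signals of 131.7 in seminal plasma arrays, 103.4 in TGFB3 arrays and 93.1 in control arrays.

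Of 20 adaptors that link the integrin tail to actin, 3 rose with seminal plasma, 1 with TGFB3 and none fell. Beside this, 1.87% of all genes rose with seminal plasma and 0.254% with TGFB3. FERMT1, the epithelial kindlin that activates integrins through the beta tail, had signals of 14762, 8933, 22002 and 26177 in seminal plasma replicates 1 to 4, 6529, 5194, 5854 and 6793 in TGFB3 replicates 1 to 4, and 2652, 3040, 3734 and 3495 in control replicates 1 to 4. The 3 groups did not overlap, and the order of the treatments was the reverse of that for ITGB6. Its log2 fold change was 2.37 ± 0.30 with seminal plasma (limma adjusted p 0.0066), called in all 12 fits with 1 array left out. With TGFB3 it was 0.92 ± 0.30 (limma adjusted p 0.411), and the direct difference was 1.45 ± 0.30 (0.0435). That difference was called in 1 of the 12 fits with 1 array left out (limma adjusted p 0.00427 to 0.122) and not without seminal plasma replicates 3 and 4 (0.92, 0.126), after median centring (1.13, 0.0817), with only the 8 arrays compared (0.164) or with the mean of its probe sets (1.16, 0.0594).

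FERMT2, the broadly expressed kindlin, rose with seminal plasma (1.27 ± 0.24, limma adjusted p 0.0276) and with TGFB3 (1.47 ± 0.24, 0.0485). ACTN1, an actin crosslinker of adhesion sites, rose with seminal plasma (0.88 ± 0.19, limma adjusted p 0.038) and had 0.52 ± 0.19 with TGFB3 (0.474). With 1 array left out, FERMT2 was called in 7 of 12 fits with seminal plasma (limma adjusted p 0.00945 to 0.0855) and 3 of 12 with TGFB3 (0.0329 to 0.186), and ACTN1 in 4 of 12 (0.01 to 0.103). Without seminal plasma replicates 3 and 4, neither was called with seminal plasma (FERMT2 1.27, limma adjusted p 0.0595, and ACTN1 0.74, 0.149). Median centring ended both calls of FERMT2 (limma adjusted p 0.134 with seminal plasma and 0.205 with TGFB3) and that of ACTN1 (0.266). The fit of only the 8 arrays compared ended the calls of FERMT2 and ACTN1 with seminal plasma (limma adjusted p 0.102 and 0.105), and 16 added to the values ended those of FERMT2 with TGFB3 (0.0541) and ACTN1 (0.0548). ACTN1 was not called after quantile normalisation (limma adjusted p 0.0706) or with the mean of its probe sets (0.0879).

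**Figure D4:**
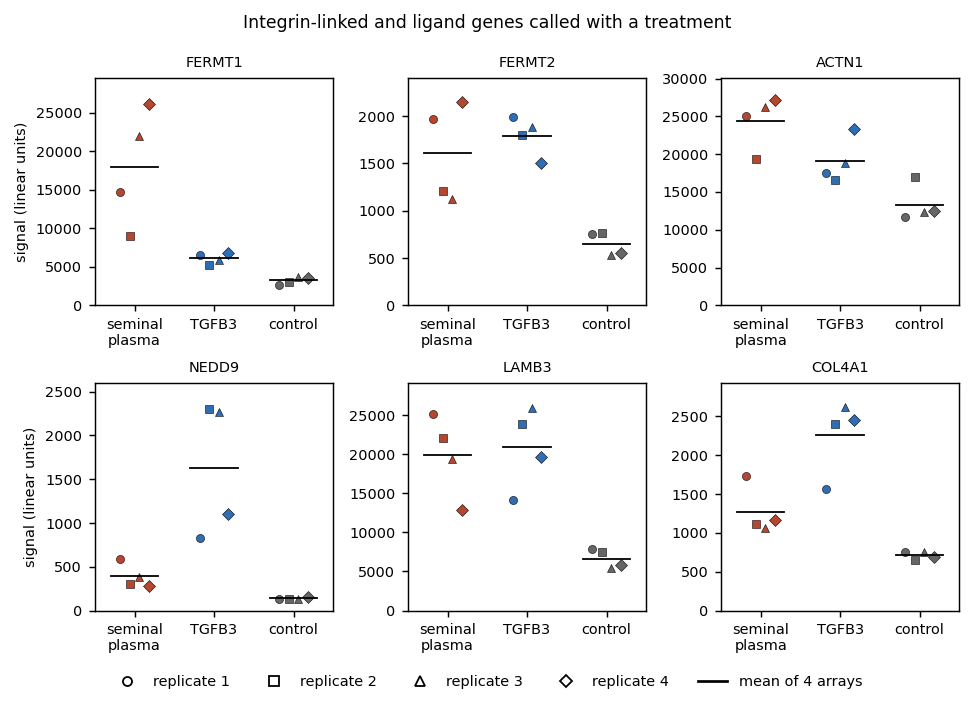
Linear signal on each of the 12 arrays for 6 genes of the ligand, adaptor and signalling lists, in seminal plasma, TGFB3 and control arrays (the symbol gives the replicate, the line the mean of 4 arrays). FERMT1 is highest with seminal plasma, and NEDD9 and COL4A1 are highest on average with TGFB3.

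Among 12 kinases, scaffolds and GTPases that signal from adhesions, none passed with seminal plasma and 1 rose with TGFB3, where 0.254% of all genes rose. The 1 gene was NEDD9, a scaffold of the focal adhesion kinase pathway. It had signals of 589.8, 306.7, 385.1 and 285.6 in seminal plasma replicates 1 to 4, 829, 2299, 2263 and 1108 in TGFB3 replicates 1 to 4, and 131.2, 130.2, 136.2 and 155.9 in control replicates 1 to 4. The 3 groups did not overlap, with TGFB3 the highest. Its log2 fold change was 3.42 ± 0.35 with TGFB3 (limma adjusted p 0.00443, called in all 12 fits with 1 array left out), and 1.44 ± 0.35 with seminal plasma (0.0533). The direct difference was -1.98 ± 0.35 (limma adjusted p 0.0305), called in 4 of the 12 fits (0.018 to 0.0903) and not with only the 8 arrays compared (0.14). Nor was that difference called without seminal plasma replicates 3 and 4 (-1.8, limma adjusted p 0.131).

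Of 12 measured regulators of integrin activity and trafficking, of 14 listed, 2 fell with seminal plasma and 1 with TGFB3, and none rose. The shares of all genes that fell were 1.38% with seminal plasma and 0.0406% with TGFB3. RASSF5, the effector through which RAP1 activates leukocyte integrins, had signals of 178.8 to 299 in seminal plasma arrays, 148.3 to 231.4 in TGFB3 arrays and 456.1 to 509.1 in control arrays. All treated arrays lay below all controls. Its log2 fold change was -1.01 ± 0.20 with seminal plasma (limma adjusted p 0.0302) and -1.34 ± 0.20 with TGFB3 (0.0293), called in 7 and 5 of the 12 fits with 1 array left out (0.0185 to 0.0826 and 0.0192 to 0.11). With the mean of its probe sets neither call held (limma adjusted p 0.262 with seminal plasma and 0.361 with TGFB3), and the first was also lost with only the 8 arrays compared (0.0841). TSPAN1, a tetraspanin of epithelial cells, fell with seminal plasma (-1.80 ± 0.41, limma adjusted p 0.047), a call that held in 1 of the 12 fits (0.0104 to 0.12) and not without seminal plasma replicates 3 and 4 (-1.41, 0.218). It was also lost with a floor of 64, quantile normalisation, median centring or only the 8 arrays compared (limma adjusted p 0.0522 to 0.119).

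The genes whose log2 signal ran most like that of a member over the 12 arrays were named by Pearson correlation among 10864 genes with a mean signal of at least 200. For ITGA2 they were ASAP2 (r = 0.953), PTHLH (0.949) and G0S2 (0.948), and for ITGB6 they were COL4A1 (0.943), SNF1LK (0.937) and TPST1 (0.937). These are descriptions over 12 arrays that share 3 treatments, with no test.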

How the data were processed

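The authors deposited a linear intensity for each probe set on each array. The submitters' processing notes name Partek, RMA, MAS5, GCOS 1.4 and R 2.6.1 without saying what each did. The deposited second table repeats these values (largest difference 0) and adds, for each treatment against control, the authors' signed fold (a deposited score, since falls are negative), p-value and call. How the authors tested was not given in the sources used here. The labels' protocols describe whole-transcript labelling, while the series' design text describes a single-cycle method. The trimmed mean signal was 493.32 to 498.44 on every array, and no further normalisation was applied.

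A floor of 16 was applied before log2, which understates changes of dim genes. All 12 arrays entered 1 fit with lmFit and eBayes of limma 3.58.1 (R 4.3.3), with a mean per treatment and the spread shared between groups, and p-values were adjusted by Benjamini-Hochberg over 54613 probe sets. Each gene was represented by its probe set with the highest mean over the 12 arrays. Standard errors and adjusted p-values come from this fit, and the printed fold is 2 to the power of the log2 difference. The fit was checked on simulated data with independent normal noise and the same spread in every group. That check does not cover arrays such as seminal plasma replicates 3 and 4. Tables came from pandas 2.3.3, scipy 1.17.1 and numpy 2.4.6 under Python 3.11.15, and figures from matplotlib 3.10.9.

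The members and the 12 gene lists were chosen with earlier results of these data known, and 1 gene of the ligand list is not reported here. All members were named, each other probe set of a member where its call or sign differed or where it was the only other one, and up to 4 called genes per list and contrast with control. TGFB1, TGFB3, PMEPA1 and SMAD7 were named whatever their values. Promoter windows are RefSeq's for GRCh38.p14. Alternatives were the floor, quantile normalisation, median centring, leaving out dim probe sets (mean under 100), an intensity trend, only the 8 arrays compared, the replicate block, array weights, the mean of a gene's probe sets, each array left out, and seminal plasma replicates 3 and 4 left out together.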

Additional observations from a re-analysis of the deposited data

How the results depend on the processing

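With seminal plasma, 1 gene and 1 probe set were called after median centring, with only the 8 arrays compared and with the replicate block, against 3 and 4 as reported. With TGFB3, against 1 gene as reported, 2 were called with 16 added to the values, a floor of 64, quantile normalisation, dim probe sets left out or the mean of a gene's probe sets, 4 with an intensity trend or array weights, 3 with the 8 arrays compared or without seminal plasma replicates 3 and 4, and 0 with the replicate block (ITGB6 adjusted p 0.0622 in limma). Its probe sets came to 7 with the trend or array weights and to 5 with the 8 arrays or without those replicates. In the direct contrast, 1 gene (ITGB6) was called with quantile normalisation, dim probe sets left out, the trend or the mean of probe sets, and 0 probe sets with the 8 arrays. With 1 array left out, the genes called were 1 to 3, 1 to 3 and 0 to 1, and the probe sets 1 to 5, 2 to 5 and 1 to 4, for seminal plasma, TGFB3 and the direct contrast.

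Log2 fold changes turned sign only among values that were not called. With seminal plasma against control these were ITGB1 211945_s_at (-0.28 after median centring, -0.17 after quantile normalisation), ITGB1 1553530_a_at (-0.22 after median centring, -0.01 with array weights, -0.14 without replicates 3 and 4), ITGB5 (-0.10) and ITGB8 (-0.23) after median centring, ITGB6 208084_at (-0.08 after median centring), ITGB3 (0.16) and COL4A1 (-0.16) with the mean of probe sets, TGFB1 (0.01 after quantile normalisation, 0.15 without replicates 3 and 4) and the TGFB3 gene (-0.13 after quantile normalisation, -0.12 after median centring). In the direct contrast they were ITGA3 (-0.30 after median centring), ITGA5 (0.21), ITGB1 (0.01) and ITGB8 (0.15) without replicates 3 and 4, and ITGB1 (0.12) and ITGB5 (0.06) with the mean of probe sets. With 1 array left out, the direct value was -0.19 to 0.33 for ITGA3 and -0.45 to 0.10 for ITGA5. The value with seminal plasma was -0.08 to 0.36 for ITGB8, -0.05 to 0.60 for ITGB6 208084_at, -0.21 to 0.16 for TGFB1 and -0.02 to 0.84 for the TGFB3 gene, which had -0.02 to 0.31 with TGFB3. The causes were not tested.

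Over all genes, 368 rose and 272 fell with seminal plasma, and median centring gave 104 and 168, the trend 797 and 756, the 8 arrays 66 and 18, the replicate block 81 and 29, dim probe sets left out 813 and 825, seminal plasma replicate 2 left out 1737 and 1694, and replicates 3 and 4 left out 131 and 77. Quantile normalisation moved the median of all probe sets with seminal plasma to 0.0137 and median centring to -0.1856, against 0.2003. With TGFB3, 50 rose and 8 fell, against 474 and 470 with array weights, 104 and 25 with the trend, 99 and 51 with the 8 arrays, 104 and 47 without seminal plasma replicates 3 and 4, 82 and 24 without dim probe sets, 66 and 30 with a floor of 64, 25 and 5 after median centring and 8 and 0 with the replicate block. In the direct contrast, 238 genes were higher and 148 lower with seminal plasma, against 593 and 435 without dim probe sets, 554 and 423 with the trend, 87 and 55 without replicates 3 and 4, 45 and 74 after median centring, 19 and 7 with the replicate block and 2 and 2 with the 8 arrays. With 1 array left out, the counts higher and lower, ordered by the first, reached from 76 and 26 (control replicate 4) to 1737 and 1694 (seminal plasma replicate 2) with seminal plasma, from 15 and 0 (TGFB3 replicate 3) to 61 and 17 (seminal plasma replicate 3) with TGFB3, and from 25 and 12 (TGFB3 replicate 3) to 1452 and 1182 (seminal plasma replicate 2) in the direct contrast. The replicate block also ended the calls of LAMB3, COL4A1, SMAD7, FERMT2, ACTN1, TSPAN1 and RASSF5, those of NEDD9 with TGFB3 and in the direct contrast, and that of FERMT1 in the direct contrast (limma adjusted p 0.0523 to 0.218). The replicate numbers did not clearly pair single arrays: same-numbered arrays of 2 groups had correlations of -0.164 to 0.249 in their deviations from the group means. Not every array correlated best with its own number. For seminal plasma against control, pairs both numbered 1 or 2, or both 3 or 4, had correlations of 0.028 to 0.106. The other pairs in that contrast had -0.13 to -0.007. In the other contrasts both kinds of pair had values of both signs. Whether this split marks a batch was not tested. Signal near the floor limits ITGB3, and 4 arrays a group limit all values.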

Other observations

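The split of the ITGB1 probe sets on seminal plasma replicates 3 and 4 had a counterpart in another integrin that is no member, ITGA6, the laminin-binding alpha chain of the hemidesmosome. Its probe set 215177_s_at had signals of 4462, 6840, 1331 and 1859 in seminal plasma replicates 1 to 4, 14929, 11416, 12721 and 13940 in TGFB3 replicates 1 to 4, and 12089, 9917, 6351 and 6552 in control replicates 1 to 4. Its probe set 201656_at had 11475, 10824, 15800 and 23826 in seminal plasma replicates 1 to 4, 12056, 14376, 14231 and 16798 in TGFB3 replicates 1 to 4, and 8353, 13497, 9019 and 9555 in control replicates 1 to 4. Seminal plasma replicates 3 and 4 were the lowest of the 12 arrays on the first, and replicate 4 was the highest on the second. ITGB4, its beta partner, was also lowest on those arrays on 204989_s_at. That probe set had 1167, 1862, 303.6 and 571.9 in the seminal plasma arrays by replicate, 1953 to 5316 in TGFB3 arrays and 2203 to 2846 in control arrays. None of these probe sets was called (limma adjusted p 0.211, 0.0874 and 0.0884 for 201656_at, 215177_s_at and 204989_s_at with seminal plasma). All 3 were picked for display with their signals in view.

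The log2 difference of 2 probe sets of 1 gene within each array is given as a description, with the pairs chosen once their signals were known. For ITGB6, 208084_at minus 226535_at had a shift in its mean of -1.08 with seminal plasma against control and of 0.86 with TGFB3 against control. For ITGB1, 1553678_a_at minus 211945_s_at had a shift of -1.77 with seminal plasma against control.

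Over 42 groups of 4 arrays (the linear signals of 14 of the member probe sets named), no array lay far enough from the rest of its group to exceed Dixon's critical value. That rule looks for 1 stray array and can miss 2 that stray together. It therefore says nothing on seminal plasma replicates 3 and 4 as a pair. Nor does it cover the log2 values used in the fits, where a low signal such as 16.45 for ITGB3 in control replicate 2 weighs more.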
